A study of Homo sapiens with 28 samples.

Results

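The arrays of HEK293 cells depleted of CLP1 were set directly against those of HEK293 cells depleted of DDX17, with no control hairpin in the comparison. HEK293 is an established human embryonic kidney line with some neuronal features. The comparison used 6 of the 28 arrays of the series: 3 labelled as CLP1 knockdown and 3 labelled as DDX17 knockdown, all of the first of 2 array series. The labels alone decided which arrays belong to each group. In both groups the cells were infected with a pLKO lentivirus whose U6 promoter drove 1 short hairpin RNA (shRNA) and were held in puromycin for 6 days, so that infection, drug and hairpin expression were common to both. Each array held total RNA of cells carrying a different hairpin, and the hairpin numbers rank the hairpins of a gene by knockdown efficiency. The hairpins of a gene were the 3 most efficient of a larger set tested beforehand, and the hairpin sequences were not used here. The 3 arrays of a group are thus 3 hairpins and not 3 cultures of 1 hairpin, and the p-values measure the spread between such arrays. The first series also held 3 arrays each of HNRNPL and DDX5 knockdown, which are given beside the 2 groups where a result turns on them.

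CLP1 is an RNA kinase that belongs to the cleavage factor II complex, in which it works with PCF11 to cut and polyadenylate nascent mRNA, and it also associates with the TSEN endonuclease that removes introns from tRNA precursors. DDX17 is a DEAD-box RNA helicase, closely related to DDX5, that takes part in splicing, in transcription and, as a partner of the DROSHA and DGCR8 microprocessor, in the processing of microRNA precursors. The comparison asks which transcripts tell the depletion of a 3′ end processing factor from that of a helicase, on the same vector and selection.

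The arrays (Affymetrix Human Gene ST1.0) read 18417 genes, with 1 probeset per gene, as log2 of the deposited intensity, and 1 unit of difference is a doubling. The median gene read 6.50 to 6.54 in the CLP1 knockdown arrays and 6.41 to 6.45 in the DDX17 knockdown arrays. The standard deviation over genes of the difference between a pair of arrays was 0.16 to 0.25 within CLP1 knockdown and 0.24 to 0.27 within DDX17 knockdown, against 0.25 to 0.39 for the 9 pairs across the groups. Of 12 markers of the line measured, the highest was NEFL, with means in CLP1 and DDX17 knockdown of 11.34 and 10.22. It was followed by VIM (9.96 and 10.03), KRT8 (9.78 and 9.41) and CDH2 (9.36 and 9.26). PAX2 (6.29 and 6.12), LHX1 (5.90 and 5.65), NEFM (5.60 and 5.86) and NES (5.91 and 6.04) lay below the median gene. Markers of other cells ranged widely in both. They were at 3.69 and 3.71 for PTPRC of blood cells, 3.71 and 3.73 for DCN of fibroblasts and 4.40 and 4.45 for ALB of hepatocytes, but near the median gene for COL1A1 of fibroblasts (6.50 and 6.70), KRT10 of keratinocytes (6.09 and 6.58) and SPI1 of blood cells (5.98 and 6.11).

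The CLP1 transcript (probeset 7940046, chromosome 11) read 5.79, 5.84 and 5.73 with CLP1 hairpins 1, 2 and 3, against 6.12, 6.14 and 6.07 with DDX17 hairpins 1, 2 and 3. All 3 CLP1 knockdown arrays were below all 3 DDX17 knockdown arrays. The difference was -0.32 ± 0.13 (SE), which is 1.25-fold lower in CLP1 knockdown, and it did not pass the test across all genes (adjusted p = 0.271, limma with Benjamini-Hochberg adjustment, n = 3 each). Over the alternative settings that adjusted p lay between 0.0274 and 0.636. The order of the arrays followed the labels, and the CLP1 difference was small on this platform. The paper measured the depletion by real-time PCR against control cells. The array difference, taken against DDX17 knockdown, is not a measure of that depletion.

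The DDX17 transcript (probeset 8076077, chromosome 22) was among the clearest differences of the whole comparison. It read 10.89, 10.88 and 10.98 in CLP1 knockdown, against 9.40, 9.59 and 9.75 in DDX17 knockdown, with no overlap. The difference was 1.33 ± 0.18, or 2.52-fold higher in CLP1 knockdown (adjusted p = 0.000297, limma), and the call held in every alternative. In the HNRNPL knockdown arrays DDX17 read 10.67, 10.74 and 10.37, and in the DDX5 knockdown arrays 11.01, 10.64 and 10.24, so that the 3 DDX17 knockdown arrays were the lowest of these 12.

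**Figure D1:**
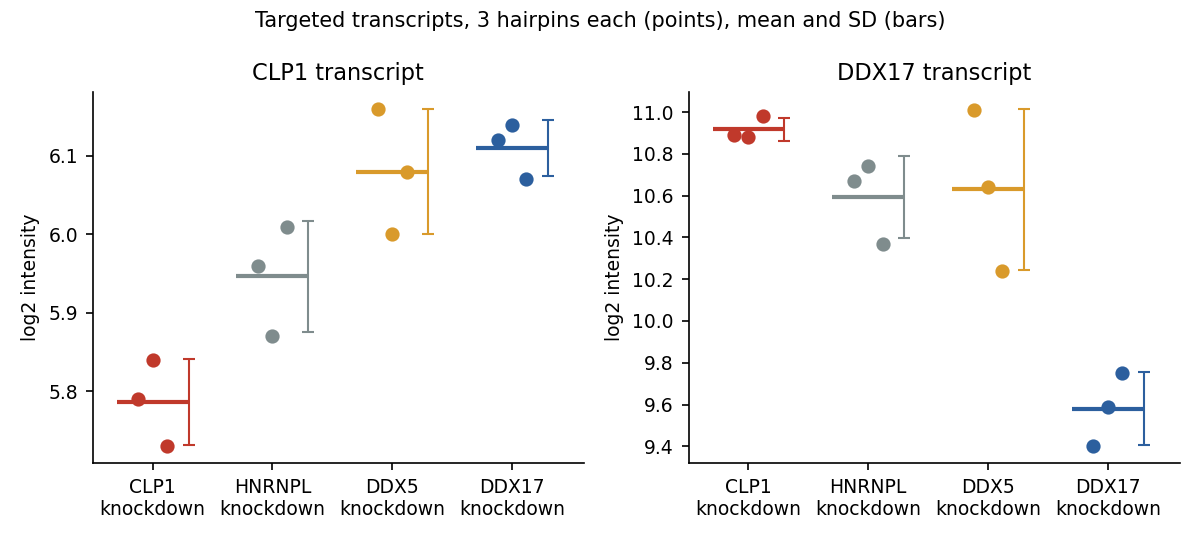
Log2 intensity of the CLP1 transcript (left) and the DDX17 transcript (right) in the 12 arrays with CLP1, HNRNPL, DDX5 or DDX17 hairpins of the first series; points are hairpins, horizontal lines the mean of 3 and vertical bars the SD. The 3 CLP1 knockdown arrays are lowest for CLP1, between 5.73 and 5.84, and the 3 DDX17 knockdown arrays are lowest for DDX17, between 9.40 and 9.75.

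None of the direct partners or paralogs of the 2 targets passed the test. DDX5, the paralog of DDX17, read 10.49, 10.62 and 10.50 in CLP1 knockdown, against 10.82, 10.60 and 10.74 in DDX17 knockdown (difference -0.18 ± 0.20, adjusted p = 0.766, limma). The 2 ranges overlapped. PCF11, the partner of CLP1 in cleavage factor II, differed by -0.00 ± 0.24, and the tRNA splicing endonuclease subunits TSEN15, TSEN34 and TSEN54 differed by 0.12 ± 0.19, -0.02 ± 0.14 and 0.05 ± 0.12. DROSHA, the nuclease of the microprocessor, differed by -0.21 ± 0.21 and its RNA-binding partner DGCR8 by 0.22 ± 0.14, with adjusted p-values of 0.740 and 0.539 (limma).

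Across all genes, 283 of 18417 were called at an adjusted p below 0.05 (1.54%, limma fitted on the 24 arrays with 3 hairpins per gene). Of these, 184 were higher in CLP1 than in DDX17 knockdown (0.999%) and 99 were lower (0.538%). The called genes differed moderately: the median fold was 1.64 among the higher genes and 1.76 among the lower genes, and 20 of the higher and 29 of the lower genes reached 2-fold. None of the 283 overlapped between the groups, where 16.4% of all genes had the 3 CLP1 knockdown arrays above the 3 DDX17 knockdown arrays and 10.9% had them below. The split by direction depended on the scaling. It was 65.0% higher as deposited, 51.5% higher after quantile normalization and 29.1% higher once each array was centred on its median, which moved the median of all genes to -0.10. The number of calls also rested on single hairpins: it was 60 without CLP1 hairpin 3 and 63 without DDX17 hairpin 2, and 44 genes (17 higher, 27 lower) were called whichever of the 6 arrays was left out. With the spread taken from the 12 arrays of the 4 knockdowns of the first series it was 50 (25 in each direction), and from the 6 arrays compared it was 1460 (1010 higher, 450 lower). Genes with a mean log2 intensity of at least 6 gave 142 calls of 10665, 77.5% of them higher. No called gene changed sign in any of these settings.

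Among the genes higher in CLP1 knockdown, GATM, the enzyme of the first step of creatine synthesis, had the largest difference. It read 6.39, 6.64 and 6.78 in CLP1 knockdown, against 5.39, 4.81 and 5.03 in DDX17 knockdown (1.53 ± 0.23, adjusted p = 0.000746, limma). ATP6V0D2, a subunit of the membrane part of the vacuolar proton pump, read 5.84, 5.94 and 5.93 in CLP1 knockdown, against 4.80, 4.65 and 4.18 in DDX17 knockdown (1.36 ± 0.17, adjusted p = 0.000183). The other 2 knockdowns placed these genes differently: the 3 CLP1 knockdown arrays were the highest of the 12 for ATP6V0D2, whereas for GATM the DDX5 knockdown arrays, at 6.76, 6.44 and 5.47, reached the CLP1 range. PHYH, the peroxisomal hydroxylase of phytanic acid breakdown, read 7.75, 7.72 and 7.88 in CLP1 knockdown, against 6.52, 6.78 and 6.58 in DDX17 knockdown (1.16 ± 0.16, adjusted p = 0.000589). For PHYH the DDX17 knockdown arrays were the lowest of the 12. The calls of GATM, ATP6V0D2 and PHYH held without any 1 of the 6 arrays.

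The 12 largest differences also held DDX17 itself and the genes that follow. ACTN4, an actin-crosslinking alpha-actinin, read 10.81, 10.88 and 10.99 in CLP1 knockdown, against 9.79, 9.47 and 9.98 in DDX17 knockdown (1.15 ± 0.21, adjusted p = 0.0051, limma), and its adjusted p was 0.0543 without DDX17 hairpin 2. NEFL, the light neurofilament subunit that HEK293 cells express, read 11.35, 11.34 and 11.32 in CLP1 knockdown, against 10.33, 10.23 and 10.10 in DDX17 knockdown (1.11 ± 0.24, adjusted p = 0.0177). The 3 CLP1 knockdown arrays were nearly identical for NEFL, yet its call was lost in 5 of the 6 fits without 1 array (adjusted p up to 0.0933, without CLP1 hairpin 3). GPR50, an orphan receptor related to the melatonin receptors, differed by 1.18 ± 0.23, with the 3 DDX17 knockdown arrays the lowest of the 12, and GSAP, the gamma-secretase activating protein, by 1.08 ± 0.19. The remaining members of the 12 largest were RNF122, a RING finger ubiquitin ligase (1.25), HGSNAT, a lysosomal acetyltransferase of heparan sulfate breakdown (1.20), TEX15, a germ cell protein of meiosis (1.16), and DHX32, a DEAH-box protein (1.08). Of these, HGSNAT lost its call whichever array was left out (adjusted p up to 0.187, without CLP1 hairpin 3), TEX15 in 5 of the 6 fits (up to 0.169, without CLP1 hairpin 3), RNF122 in 3 (up to 0.122, without DDX17 hairpin 2) and GPR50 and DHX32 in 2 (up to 0.0603 without DDX17 hairpin 2 and 0.0535 without CLP1 hairpin 3).

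The genes lower in CLP1 knockdown held the largest differences. CD99, a cell surface glycoprotein of adhesion and migration, was the most significant gene of the comparison. It read 6.04, 5.98 and 5.84 in CLP1 knockdown, against 7.69, 7.58 and 7.48 in DDX17 knockdown (-1.63 ± 0.16, 3.10-fold lower, adjusted p = 9.36e-06, limma). The HNRNPL knockdown arrays read 7.75, 7.84 and 7.66 for CD99 and the DDX5 knockdown arrays 5.81, 6.43 and 6.24, so that the 12 arrays fell in a low pair of knockdowns, CLP1 and DDX5, and a high pair, HNRNPL and DDX17. Its paralog CD99L2 went the other way, at 7.24, 7.33 and 7.29 in CLP1 knockdown, against 6.40, 6.39 and 6.36 in DDX17 knockdown (0.90 ± 0.16, adjusted p = 0.00299); it is named here after its values were seen.

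FUT3, the fucosyltransferase that makes the Lewis blood group antigens, had the largest difference in either direction among the called genes. It read 5.17, 4.93 and 4.95 in CLP1 knockdown, against 6.25, 6.45 and 7.62 in DDX17 knockdown (-1.76 ± 0.22, adjusted p = 0.000205, limma). DDX17 hairpin 3 stood above the other two. Its neighbour and near copy FUT5, named after its values were seen, differed by -0.84 ± 0.19 (adjusted p = 0.253 without CLP1 hairpin 3), and probes of such close relatives may read each other's transcripts. PDGFD, a platelet-derived growth factor ligand, read 4.81, 4.75 and 4.77 in CLP1 knockdown, against 6.28, 5.96 and 6.33 in DDX17 knockdown (-1.42 ± 0.20, adjusted p = 0.000589). For FUT3 and PDGFD the 3 DDX17 knockdown arrays were the highest of the 12. MTUS2-AS1, a long noncoding RNA antisense to MTUS2, read 5.22, 5.25 and 4.95 in CLP1 knockdown, against 5.94, 6.42 and 7.29 in DDX17 knockdown (-1.40 ± 0.22, adjusted p = 0.00131), with DDX17 hairpin 3 the highest array again.

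The 12 largest differences in this direction also held ENDOU, an endoribonuclease (-1.29 ± 0.21), KRTDAP, a keratinocyte differentiation protein (-1.30 ± 0.29), AMBN, the enamel protein ameloblastin (-1.46 ± 0.27), ELSPBP1, an epididymal sperm-binding protein (-1.51 ± 0.35), and CFAP61, a protein of motile cilia (-1.37 ± 0.22). ENDOU read 4.88, 5.08 and 4.88 in CLP1 knockdown, against 5.77, 5.87 and 7.08 in DDX17 knockdown, again with DDX17 hairpin 3 high. KRTDAP read 6.32, 7.01 and 6.54 in CLP1 knockdown, against 7.13, 8.50 and 8.15 in DDX17 knockdown, so that CLP1 hairpin 2 and DDX17 hairpin 1 lay close together. KRTDAP lost its call in 4 of the 6 fits without 1 array (adjusted p up to 0.200, without DDX17 hairpin 2) and ELSPBP1 in 5 (up to 0.212, without DDX17 hairpin 2). The keratins KRT5 and KRT14 and involucrin (IVL), markers of keratinocytes, averaged 5.24, 5.91 and 4.98 in CLP1 knockdown, against 5.30, 6.02 and 5.14 in DDX17 knockdown. All 5 keratinocyte markers measured were negative and none passed the test. KRT10 differed most, by -0.49 ± 0.15 (adjusted p = 0.117, limma), and its arrays did not overlap between the groups (10.9% of all genes were so placed). It was called in some alternatives, among them the spread taken from the 6 arrays compared.

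**Figure D2:**
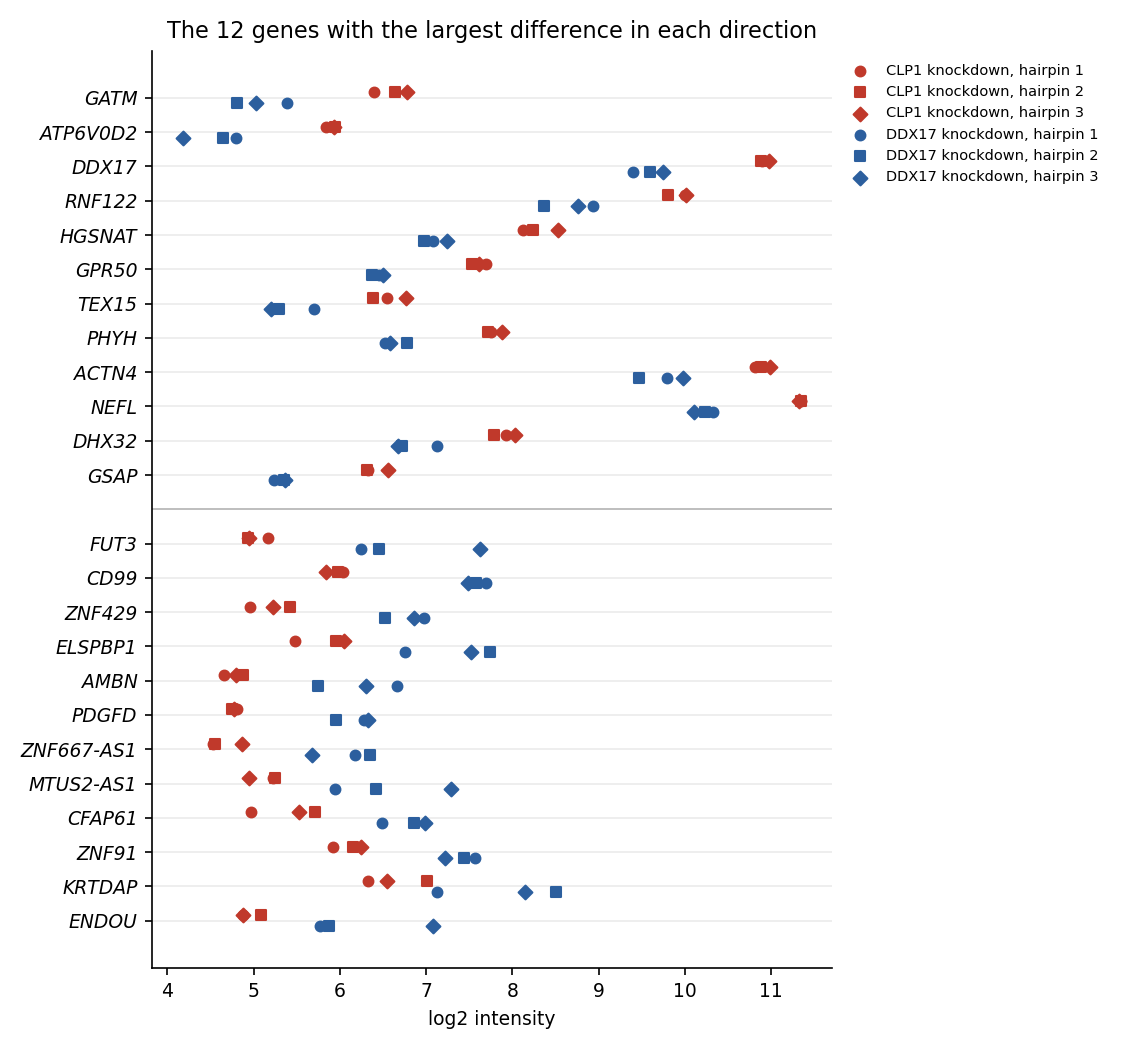
Log2 intensity (x axis) of the 12 genes with the largest called difference in each direction (rows) in the 6 arrays; red symbols are CLP1 knockdown, blue symbols DDX17 knockdown, and the shape gives the hairpin number. No gene overlaps between the groups, and the DDX17 hairpins spread more widely than the CLP1 hairpins for FUT3, MTUS2-AS1 and ENDOU, where hairpin 3 is highest.

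The HNRNPL and DDX5 knockdown arrays were set beside the 2 groups for the called genes. They are knockdowns themselves and not controls, so which of the 2 groups had changed was not tested. Among the 184 higher genes, the 3 CLP1 knockdown arrays were above all of the other 9 arrays for 63 (1.79% of all genes were so), and the 3 DDX17 knockdown arrays were below all of the other 9 for 61 (1.79% of all genes), with 17 genes in both counts and 77 in neither. Among the 99 lower genes, the CLP1 knockdown arrays were the lowest 3 of the 12 for 19 (1.20% of all genes), the DDX17 knockdown arrays the highest 3 for 27 (1.05% of all genes), and 53 were in neither. These counts share the 6 arrays that made the calls, so they describe the called genes and test nothing. The mean of the DDX5 knockdown arrays lay nearer the CLP1 knockdown mean than the DDX17 knockdown mean for 83 of the 99 lower genes and 111 of the 184 higher genes, against 7771 of all 18417 genes. The mean of the HNRNPL knockdown arrays did so for 33 of the 99 and 68 of the 184, against 7525 of all 18417.

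Of the 99 lower genes, 17 were zinc finger (ZNF) genes on chromosome 19. ZNF genes of the C2H2 type encode DNA-binding proteins, many of which recruit the KAP1 corepressor to transposable elements, and they stand in clusters of related copies on chromosome 19. Of 480 ZNF genes measured, 6 were called higher and 18 lower in CLP1 knockdown, against 0.999% and 0.538% of all genes. Of the 18, 17 were among the 233 ZNF genes on chromosome 19, where none was called higher, while the 247 on other chromosomes gave 6 higher and 1 lower. The group as a whole was not shifted: the median difference was 0.01 for the 233 genes on chromosome 19 and 0.10 for the 247 others, beside -0.01 for all genes, and after centring of the arrays the first 2 medians were -0.09 and 0.00. All genes of chromosome 19 together gave 3 higher and 29 lower calls of 1308, or 2.22% lower.

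ZNF808 was the clearest of them. It read 4.81, 4.99 and 5.05 in CLP1 knockdown, against 6.21, 6.15 and 6.24 in DDX17 knockdown (-1.25 ± 0.14, 2.37-fold lower, adjusted p = 4.14e-05, limma). In the HNRNPL knockdown arrays it read 6.40, 6.27 and 5.89, and in the DDX5 knockdown arrays 4.92, 4.98 and 4.84. ZNF468 read 4.61, 4.68 and 4.67 in CLP1 knockdown, against 6.06, 5.78 and 5.64 in DDX17 knockdown (-1.17 ± 0.17, adjusted p = 0.000638), and ZNF528 read 4.59, 4.82 and 4.96, against 5.96, 5.76 and 5.87 (-1.07 ± 0.17, adjusted p = 0.00113). The calls of these 3 genes held without any 1 of the 6 arrays. For all 18 lower ZNF genes the DDX5 knockdown mean was nearer the CLP1 than the DDX17 knockdown mean, and for 16 of the 18 the HNRNPL knockdown mean was nearer the DDX17 knockdown mean.

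By gene order in the RefSeq annotation of assembly GRCh38.p14, the 17 lower ZNF genes of chromosome 19 fell in 3 stretches when neighbours within 2 Mb were joined. The stretch with ZNF808 held 10 of them (ZNF610, ZNF880, ZNF528, ZNF808, ZNF701, ZNF83, ZNF28, ZNF468, ZNF816 and ZNF160). All 17 ZNF genes measured between the first and the last of these were lower in CLP1 knockdown in sign, with differences of -1.25 to -0.08 and a median of -0.73, although 7 of them were not called. Of the 10 called, ZNF701 lost its call whichever array was left out (adjusted p up to 0.151, without CLP1 hairpin 1) and ZNF880 in 2 of the 6 fits (up to 0.0594, without CLP1 hairpin 1). A second stretch held ZNF85, ZNF429, ZNF43, ZNF492 and ZNF91, which were 5 of its 19 measured ZNF genes. In that stretch 15 of the 19 were negative, with a median of -0.19. ZNF429 differed by -1.58 ± 0.31 and ZNF91 by -1.31 ± 0.27. ZNF431 and ZNF208 of the same stretch, named after their values were seen, differed by 0.00 each. The last 2 genes, ZNF440 and ZNF700, differed by -0.63 and -0.82, with adjusted p-values of 0.212 and 0.137 without DDX17 hairpin 2. ZNF429 and ZNF91 each lost the call in 3 of the 6 fits without 1 array, with adjusted p-values up to 0.0610 (without CLP1 hairpin 1) and 0.0792 (without DDX17 hairpin 2), as did ZNF43 in 3 fits (up to 0.0672, without CLP1 hairpin 3) and ZNF492 in 4 (up to 0.0862, without CLP1 hairpin 1). The stretches were drawn around called genes, so their counts are a description, and as copies in such clusters share sequence, the probes of 1 gene may read part of another's transcript.

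**Figure D3:**
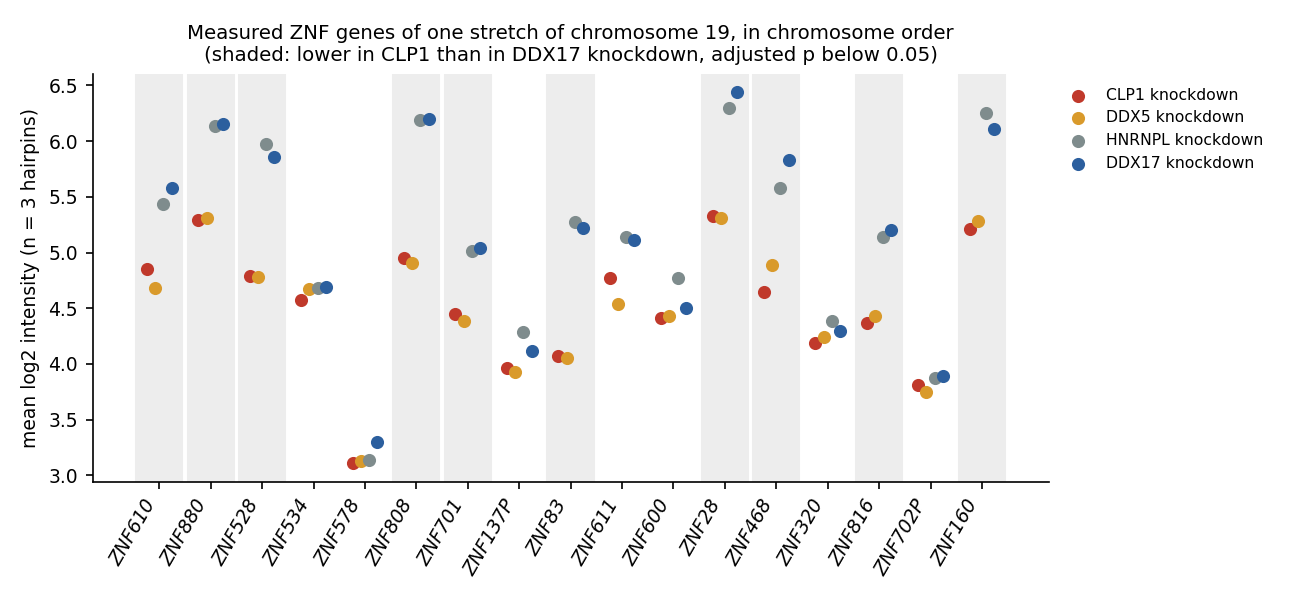
Mean log2 intensity (y axis, n = 3 hairpins) of the 17 ZNF genes measured in the stretch of chromosome 19 around ZNF808, in chromosome order, with CLP1, DDX5, HNRNPL and DDX17 knockdown side by side for each gene. In the 10 shaded genes, called lower in CLP1 than in DDX17 knockdown, the CLP1 and DDX5 means lie together below the HNRNPL and DDX17 means.

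The antisense transcript ZNF667-AS1, elsewhere on chromosome 19, showed the same arrangement of the 4 knockdowns. It read 4.53, 4.55 and 4.86 in CLP1 knockdown, against 6.18, 6.35 and 5.68 in DDX17 knockdown (-1.42 ± 0.24, adjusted p = 0.00286, limma). The HNRNPL knockdown arrays read 6.49, 6.03 and 5.23 and the DDX5 knockdown arrays 4.60, 4.67 and 4.77. KHDRBS3, a splicing regulator of the STAR family named after its values were seen, read 6.92, 6.91 and 6.87 in CLP1 knockdown, against 8.02, 7.83 and 7.83 in DDX17 knockdown (-0.99 ± 0.17, adjusted p = 0.00277), with DDX5 knockdown at 7.21, 7.05 and 7.00 and HNRNPL knockdown at 8.17, 7.86 and 7.45. The labels give no batch within the first series, and a shared origin of the cells or preparations behind this arrangement was not tested. ZNF76, on chromosome 6, was the largest ZNF difference in the other direction, at 7.24, 7.20 and 7.35 in CLP1 knockdown, against 6.19, 6.10 and 6.29 in DDX17 knockdown (1.07 ± 0.16, adjusted p = 0.000687).

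**Figure D4:**
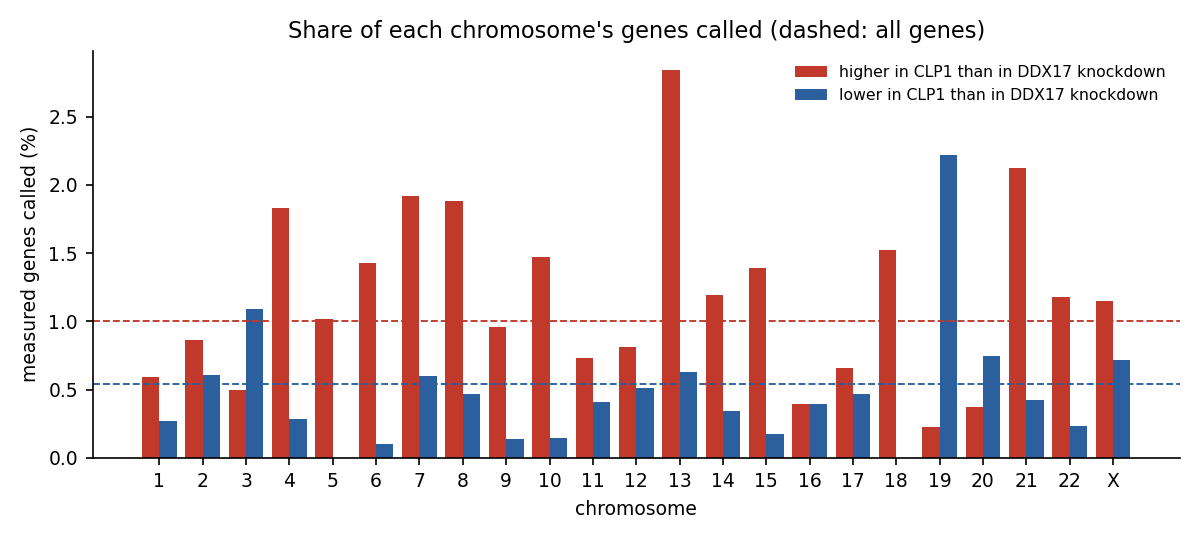
Percentage of the measured genes of each chromosome (x axis) called higher (red) or lower (blue) in CLP1 than in DDX17 knockdown; dashed lines are the shares over all genes, 0.999% and 0.538%. Chromosome 19 has the highest share of lower calls, 2.22%, and the smallest share of higher calls, 0.229%, and chromosome 13 the highest share of higher calls, 2.84%, from 9 of 317 genes.

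Of 70 oxidative phosphorylation genes measured, 3 were called lower and none higher in CLP1 knockdown, against 0.538% and 0.999% of all genes. In sign, 50 of the 70 were negative and 20 positive (median -0.17), where 9421 of all 18417 genes were negative (median -0.01). The 3 were subunits of complex I, the NADH dehydrogenase. NDUFB10 read 8.27, 8.16 and 8.24 in CLP1 knockdown, against 8.94, 9.45 and 9.14 in DDX17 knockdown (-0.95 ± 0.17, adjusted p = 0.00538, limma), and NDUFB4 and NDUFB1 differed by -0.86 ± 0.21 and -0.64 ± 0.14. DDX17 hairpin 2 was the highest array for all 3, and without it none of them was called (adjusted p = 0.0610 for NDUFB10, 0.329 for NDUFB4 and 0.182 for NDUFB1) and the median of the 70 genes was -0.05. Of 73 mitochondrial ribosomal protein genes, 48 were negative and 2 were called lower (0.538% of all genes were): MRPL33 of the large subunit (-1.03 ± 0.19) and MRPS22 of the small subunit (-0.58 ± 0.14), with a median of -0.09 over the 73. Both calls were lost without DDX17 hairpin 2, at adjusted p = 0.0675 and 0.222. Among 58 cytosolic ribosomal protein genes 45 were negative (median -0.12), and none was called in limma, where 5 were lower at an unadjusted p below 0.05. Over all 18417 genes, 1593 were higher and 892 lower at that unadjusted p.

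Genes of the integrated stress response, in which the transcription factor ATF4 switches on amino acid and stress genes, did not move as a group. Of 47 measured, none was called higher and 2 lower, 21 were positive and 26 negative, and the median was -0.04 (0.999% and 0.538% of all genes were called higher and lower). NUPR1, a small stress-induced chromatin protein, read 8.26, 8.73 and 8.14 in CLP1 knockdown, against 9.26, 9.22 and 9.43 in DDX17 knockdown (-0.92 ± 0.22, adjusted p = 0.0301, limma). FGF21, a secreted hormone of metabolic stress, read 5.90, 6.40 and 6.09 in CLP1 knockdown, against 7.05, 7.03 and 7.48 in DDX17 knockdown (-1.06 ± 0.26, adjusted p = 0.0365). DDX5 hairpin 1, at 7.12, was within the DDX17 range for FGF21 and the other 2 DDX5 arrays, at 5.45 and 5.82, were not. The call of FGF21 was lost whichever array was left out (adjusted p up to 0.160, without DDX17 hairpin 3) and that of NUPR1 in 5 of the 6 fits (up to 0.196, without CLP1 hairpin 3).

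The promoter of FGF21 holds the sequence TTGCATCA, a form of the composite site bound by ATF4 with a C/EBP partner. The 30 bases around it are shown because FGF21 was 1 of the 2 called members. Beside them are those of CHAC1, a glutathione-degrading ATF4 target that carries the site and was not called (-0.69). Capitals mark the 8 bases, which begin 54 bases before the start of FGF21 and 209 bases before that of CHAC1 (RefSeq promoters, GRCh38.p14, plus strand, chr19:48755459-48755488 and chr15:40953251-40953280).
FGF21: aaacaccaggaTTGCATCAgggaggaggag
CHAC1: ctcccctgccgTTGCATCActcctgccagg
On either strand TTGCATCA occurs in 0.866% of 35116 promoters of 300 bases (250 before the start and 50 after). It occurs in 6 of the 40 list members with a promoter in that table. The carriers not printed were CARS1 (0.04), MARS1 (-0.10), NARS1 (0.11) and AARS1 (-0.16), none of them called. A match of letters says nothing of binding in these cells.

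MicroRNA genes were measured by probesets for their precursors, which cannot tell a precursor from a host transcript and do not measure the mature microRNA. Of 186 measured, 1 was called higher and 2 lower, shares close to the 0.999% and 0.538% of all genes, with a median of -0.02. MIR196A1, in the HOXB cluster, read 6.46, 6.42 and 6.82 in CLP1 knockdown, against 5.80, 5.77 and 5.95 in DDX17 knockdown (0.73 ± 0.16, adjusted p = 0.0172, limma), above all of the other 9 arrays as well. MIR9-1, of the neuronal miR-9 family, read 4.14, 4.01 and 3.94 in CLP1 knockdown, against 4.78, 4.71 and 4.81 in DDX17 knockdown (-0.74 ± 0.15, adjusted p = 0.00839), below all of the other 9. MIR96, of the sensory organ cluster with MIR182 and MIR183, differed by -0.29 ± 0.07 near the bottom of the scale, at 3.52, 3.46 and 3.47 against 3.78, 3.78 and 3.75. Without CLP1 hairpin 3 the adjusted p was 0.152 for MIR196A1 and 0.0755 for MIR9-1, and MIR96 lost its call whichever array was left out (up to 0.212, without DDX17 hairpin 2). The major arm of each is printed with its seed, bases 2 to 8, in capitals, from RefSeq (GRCh38.p14), because the seed sets which mRNAs a mature microRNA can pair with.
hsa-miR-196a-5p: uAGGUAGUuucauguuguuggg
hsa-miR-9-5p: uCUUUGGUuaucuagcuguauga
hsa-miR-96-5p: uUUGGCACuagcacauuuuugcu
The 6 mature sequences of the 3 genes carry 6 different seeds. MicroRNA processing genes, DDX17 not counted, gave no call among 21 (median 0.10). At an unadjusted p below 0.05 in limma 1 was higher and none lower, beside 1593 and 892 of all 18417 genes.

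Box H/ACA small nucleolar and Cajal body RNAs, which guide pseudouridylation, had the lowest median of all lists, -0.48. Of 77 measured, 69 were negative, 20 were lower at an unadjusted p below 0.05 and none was called in limma. Of all 18417 genes, 9421 were negative and 892 were lower at that unadjusted p. SNORA7B came nearest, at 8.24, 8.47 and 8.52 in CLP1 knockdown, against 9.0, 10.09 and 9.30 in DDX17 knockdown (-1.05 ± 0.27, adjusted p = 0.0504). SNORA28 read 6.76, 7.44 and 8.10 in CLP1 knockdown, against 9.07, 10.31 and 8.58 in DDX17 knockdown (-1.89 ± 0.51, adjusted p = 0.0618). The level of the list went with single arrays. Its median per array was 7.96, 8.20 and 8.36 in CLP1 knockdown, against 8.26, 9.48 and 8.43 in DDX17 knockdown, and it reached 9.59 with HNRNPL hairpin 3 and 9.53 with DDX5 hairpin 3. Without DDX17 hairpin 2 the median difference was -0.17. Among 115 box C/D small nucleolar RNAs, which guide ribose methylation, the median was -0.17 (0.00 without DDX17 hairpin 2). Of them 1 was called higher and none lower, where 0.999% and 0.538% of all genes were. It was SNORD116-10 (0.22 ± 0.05), read near the bottom of the scale, between 3.06 and 3.34 (adjusted p = 0.177 without DDX17 hairpin 2, limma).

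Of 22 core 3′ end processing genes, CLP1 not counted, none was called (median -0.08, differences of -0.59 to 0.38). At an unadjusted p below 0.05 in limma 2 were higher and 1 lower, beside 1593 and 892 of all 18417 genes. All CLP1 knockdown arrays were above the DDX17 knockdown arrays for 4 (16.4% of all genes) and below them for 6 (10.9% of all genes). WDR82, a subunit of the PNUTS phosphatase complex, read 9.06, 9.23 and 9.15 in CLP1 knockdown, against 9.70, 9.49 and 10.02 in DDX17 knockdown (-0.59 ± 0.21, adjusted p = 0.182). Of 18 tRNA splicing genes, CLP1 not counted, none was called (median 0.00, with 1 higher and 2 lower at an unadjusted p below 0.05). The 2 with the smallest p were C2orf49 (ashwin, -0.73 ± 0.21) and ZBTB8OS (archease, -0.64 ± 0.18), both associated with the tRNA ligase complex. C2orf49 read 7.16, 7.26 and 7.28 in CLP1 knockdown, against 7.66, 8.18 and 8.04 in DDX17 knockdown, and ZBTB8OS read 6.65, 6.78 and 6.83, against 6.86, 7.71 and 7.62. Their adjusted p-values were 0.0825 and 0.0779, and both genes and WDR82 were called when the spread came from the 6 arrays compared. Of 35 DEAD-box helicases, DDX17 not counted, 1 was called higher and none lower, where 0.999% and 0.538% of all genes were. It was DDX60L, an antiviral factor (0.75 ± 0.17, adjusted p = 0.0301, and 0.240 without CLP1 hairpin 3, limma).

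Replication-dependent histones, whose mRNAs end without a poly(A) tail, had a median of 0.19 over 49 genes, with 38 positive and none called in limma. At an unadjusted p below 0.05, 11 were higher and none lower, beside 1593 and 892 of all 18417 genes. H2BC17 differed by 0.66 ± 0.19 and H2AC11 by 0.45 ± 0.14. The list median per array was 7.21, 7.30 and 7.36 in CLP1 knockdown, against 7.19, 7.30 and 6.78 in DDX17 knockdown, and without DDX17 hairpin 3 the median difference was 0.06. Mitotic (G2 and M phase) genes were positive in 29 of 34 (median 0.17) and p53 targets in 21 of 28 (median 0.19), with none called and 5 of each list higher at an unadjusted p below 0.05. With the arrays centred these 3 medians, for histones, mitotic genes and p53 targets, were 0.09, 0.08 and 0.10, while that of all genes was -0.10.

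**Figure D5:**
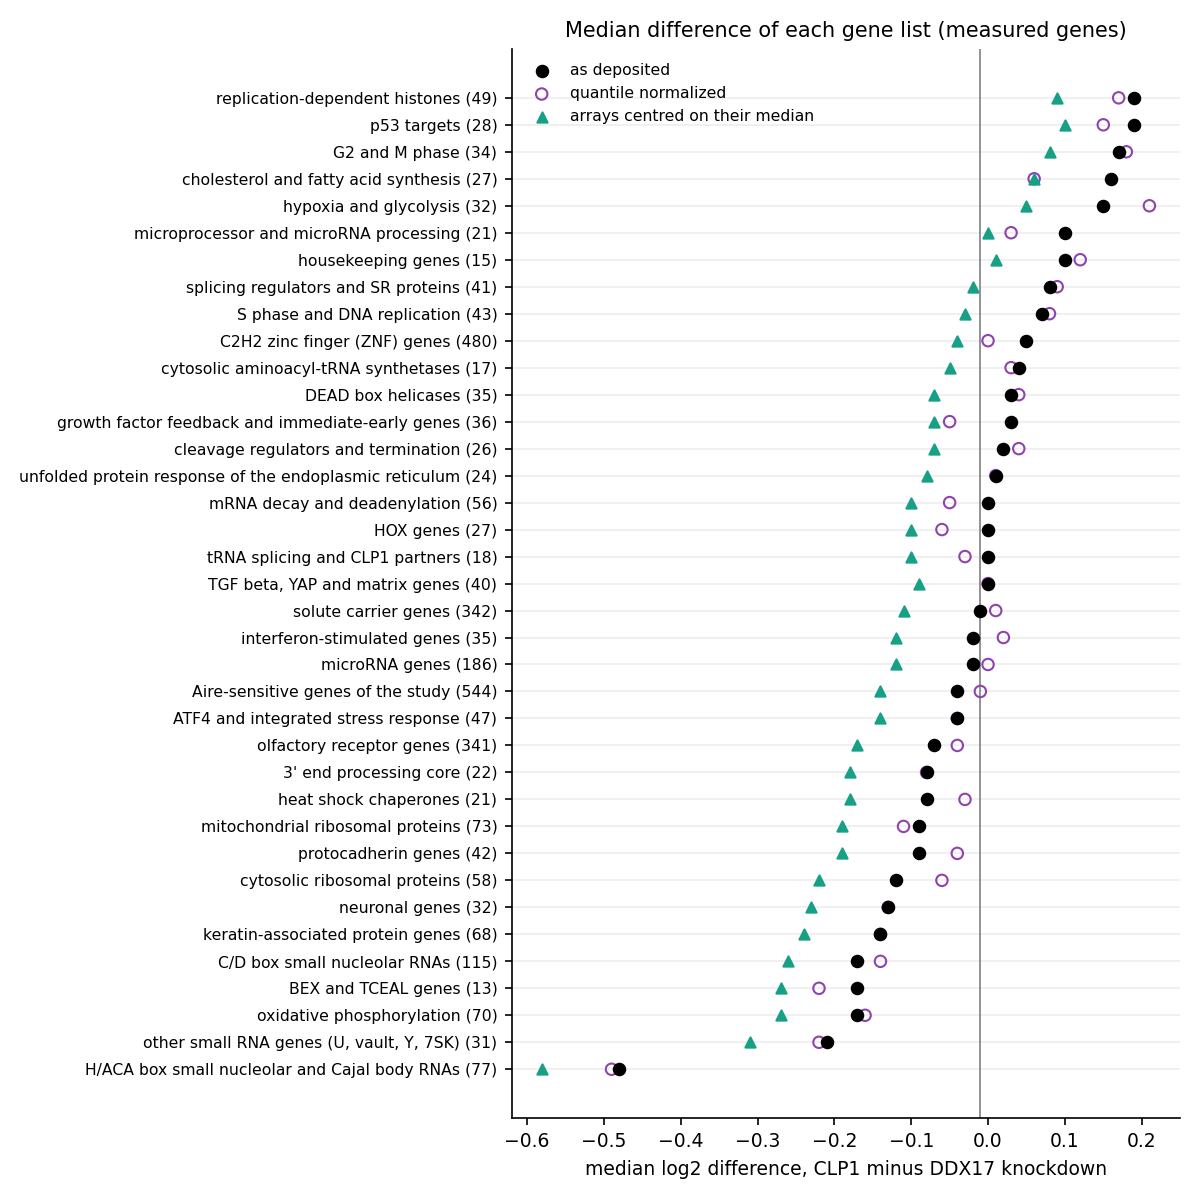
Median log2 difference, CLP1 minus DDX17 knockdown (x axis), of each gene list (rows, number of measured genes in parentheses) on the deposited scale (black), after quantile normalization (open circles) and with each array centred on its median (triangles); the vertical line is the median of all genes, -0.01. The H/ACA RNAs lie farthest from it, at -0.48, and most lists lie within 0.2 of it.

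Solute carriers gave 6 higher and none lower calls of 342, against 0.999% and 0.538% of all genes (median -0.01). The largest of the 6 was the glucose 6-phosphate transporter SLC37A4, at 7.58, 7.05 and 7.40 in CLP1 knockdown, against 6.59, 6.11 and 6.31 in DDX17 knockdown (1.01 ± 0.18, adjusted p = 0.00358, limma). Its partner in the endoplasmic reticulum, the hexose 6-phosphate dehydrogenase H6PD, read 6.18, 6.32 and 6.29 in CLP1 knockdown, against 5.55, 5.36 and 5.62 in DDX17 knockdown (0.76 ± 0.12, adjusted p = 0.00179). The calls of SLC37A4 and H6PD held without any 1 of the 6 arrays. The other 5 solute carriers (SLC25A15, SLC26A2, SLC25A1, SLC27A6 and SLC37A1, with differences of 0.57 to 0.91) each lost the call in 4 to 6 of the 6 fits without 1 array, at adjusted p-values up to 0.199 to 0.291. The liver-type phosphofructokinase PFKL of glycolysis differed by 0.83 ± 0.17 and the lanosterol synthase LSS of cholesterol synthesis by 0.62 ± 0.15, the only calls among 32 and 27 genes, with list medians of 0.15 and 0.16. PFKL lost its call in 4 of the 6 fits without 1 array (adjusted p up to 0.0862, without CLP1 hairpin 1) and LSS in 5 (up to 0.275, without DDX17 hairpin 2).

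The next 3 lists had few calls, where 0.999% of all genes were called higher and 0.538% lower. Among 35 interferon-stimulated genes 2 were called higher, IFIT1 (0.52 ± 0.13) and IFIT2 (0.48 ± 0.12), neighbouring sensors of foreign RNA, and the list median was -0.02. IFIT1 read 4.61, 4.85 and 4.70 in CLP1 knockdown, against 4.18, 4.09 and 4.34 in DDX17 knockdown. Both calls were lost whichever array was left out (adjusted p up to 0.239 for IFIT1, without DDX17 hairpin 2, and 0.230 for IFIT2, without CLP1 hairpin 3). Of 32 neuronal genes, 1 was higher (NEFL) and 2 lower: BEX1, a small signalling adaptor, at 8.81, 8.87 and 8.86 in CLP1 knockdown, against 9.54, 10.29 and 9.94 in DDX17 knockdown (-1.08 ± 0.23, adjusted p = 0.0152, limma), and the neuropeptide NTS (-0.92 ± 0.23). Both were lost in 5 of the 6 fits without 1 array, up to 0.153 and 0.182 without DDX17 hairpin 2. Keratin-associated protein genes gave 2 lower calls of 68, KRTAP21-1 (-0.73 ± 0.12) and KRTAP5-2 (-0.68 ± 0.17), with 59 negative and a median of -0.14. KRTAP5-2 lost its call whichever array was left out (adjusted p up to 0.249, without DDX17 hairpin 2). Of the 6 fibroblast markers, LUM was called lower (-0.50 ± 0.10, adjusted p = 0.0126) and PDGFRA higher (0.46 ± 0.11, adjusted p = 0.039); their adjusted p-values were 0.123 and 0.222 without DDX17 hairpin 2.

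The study traced genes that depend on Aire, a transcriptional regulator of thymic epithelium, and that carry a proximal poly(A) site. The list used here is of mouse thymic epithelial cells. For its HEK293 arrays the paper used another set, genes raised by Aire in HEK293 cells. It reported, against the control hairpin, that 2 CLP1 hairpins lowered that set, which was not examined here. By their mouse symbols in capitals, 544 of the 728 genes of the mouse list were measured. Of these, 6 were called higher and 1 lower in CLP1 than in DDX17 knockdown. That is 1.54% of all genes called against 7 of 544, and the list median was -0.04 beside -0.01 for all genes. The 4 called with the smallest p were ATP6V0D2, H6PD, PLLP, a myelin and epithelial membrane protein (0.83 ± 0.18), and PAQR8, a membrane progesterone receptor (0.65 ± 0.15), and the lower one was NTS. PLLP and PAQR8 lost their calls without 1 array in 4 and 5 of the 6 fits, up to adjusted p = 0.133 (without CLP1 hairpin 3) and 0.217 (without DDX17 hairpin 2).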

How the data were processed

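Total RNA of HEK293 cells infected with shRNA lentiviruses was read on 28 Affymetrix Human Gene ST1.0 arrays, in 2 series that the authors normalized apart. The deposited values are linear probeset intensities (4.25 to 18486) that the authors made with RMA (background correction, quantile normalization, probe summary), and the version of that tool is not given in the sources used here. The number of arrays, and not a read depth, limits the precision. Of 33252 probesets, 19460 carried 1 gene symbol in the platform annotation, 1754 several and 12038 none. The brightest single-symbol probeset stood for each of 18417 genes, of which 18389 matched the GRCh38.p14 RefSeq table by gene number.

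Log2 intensities of 24 arrays (8 genes with 3 hairpins each) were fitted with limma 3.58.1 in R 4.3.3 as group means with an intensity trend. These arrays share 1 spread per gene (16 residual degrees of freedom). CLP1 minus DDX17 knockdown was tested two-sided and called at a Benjamini-Hochberg adjusted p below 0.05 over all genes. Control hairpins and CPSF6 arrays were left out of the fit, since the comparison uses no control and CPSF6 had 1 array only. In data simulated for this comparison over 18417 genes, 80 of 100 genes shifted by 1 log2 unit and 99 of 100 shifted by 2 were called. Of 189 calls 10 were false. The simulated noise was independent between genes and arrays, with the same spread per gene in every group. Shifts shared by many genes of an array were absent from it, so these shares need not hold for the real arrays. Figures used Python 3.11.15, numpy 2.4.6, pandas 2.3.3 and matplotlib 3.10.9.

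The genes named were the 2 targets, their partners and paralogs, the 12 largest called differences in each direction without overlap, up to 4 called members of each list by smallest p and, where a list had none called, up to 2 by smallest p. The comparison, the gene lists and these rules were chosen with earlier results of these data known. Lists are described by counts and medians beside those of all genes, with no set test. The alternatives were other arrays sharing the spread, no trend, array weights, centring or quantile scaling, a pseudocount of 16, a filter at a mean log2 intensity of 6, the mean of probesets, the hairpin number as a replicate block and each array left out. Deviations of the same-numbered CLP1 and DDX17 arrays from their group means correlated at 0.2259, -0.0616 and 0.275, and the numbers rank efficiency, so they were not taken as pairs.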

Additional observations from a re-analysis of the deposited data

How the results depend on the processing

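The limma fit on 24 arrays called 283 genes, 184 higher and 99 lower in CLP1 than in DDX17 knockdown. Taking the spread from the first series alone gave 50 calls (25 higher, 25 lower), from the 6 arrays compared 1460 (1010 higher, 450 lower) and with array weights 3602 (2083 higher, 1519 lower), where the CLP1 transcript passed as well (-0.29, adjusted p = 0.0274); the estimation of those weights stopped before it converged. Centring each array on its median gave 285 calls (83 higher, 202 lower), quantile normalization 165 (85 higher, 80 lower) and the filter on low values 142 of 10665 genes (110 higher, 32 lower), which left out the CLP1 transcript and every olfactory receptor and hepatocyte marker. Leaving out 1 of the 6 arrays at a time gave 60 to 248 calls, 24 to 144 higher and 36 to 104 lower, and the fewest were without CLP1 hairpin 3 and without DDX17 hairpin 2. With the hairpin number as a replicate block 283 genes were called (183 higher, 100 lower), 255 of them shared with the fit without the block, and among the called genes named by the rule KRTAP5-2 and MIR96 lost the call. No gene among the 283 changed sign under any setting, and 33 were called under every alternative, the filter on low values apart. Of 58 called genes named by the rule, 18 were called in the first series alone, 39 after quantile normalization, 48 after centring and 21 to 44 without 1 array. The median of all genes was -0.10 with centring and -0.01 as deposited, and 18 of 42 list medians moved beyond the spread between hairpins with centring. The causes of these changes were not tested. With 3 hairpins a group, 1 array each, many calls did not survive the loss of an array. Of the 283, 44 were called in all 6 fits without 1 array and 14 were lost in 1 fit only. The calls of 58 were lost whichever array was left out.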

Other observations

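Gene groups near both targets that the text has not described held no call in limma. Splicing regulators and SR proteins differed by a median of 0.08 over 41 genes, with 3 higher and 1 lower at an unadjusted p below 0.05, and the largest departures by p were HNRNPLL, a paralog of HNRNPL (-0.51, adjusted p = 0.206), and PTBP2, the neuronal polypyrimidine tract binding protein (0.59). Regulators of cleavage and termination had a median of 0.02 over 26 genes, and genes of mRNA decay and deadenylation a median of -0.00 over 56. The cyclin-dependent kinase CDK13 of transcription elongation differed by 0.50 and the U1 snRNP protein SNRPA by -0.43. At an unadjusted p below 0.05 these 2 lists held 1 higher and 1 lower, and 0 higher and 1 lower. Over all 18417 genes, 1593 were higher and 892 lower at that unadjusted p.

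Stress and growth programmes were also without calls in limma. The unfolded protein response had a median of 0.01 over 24 genes, heat shock chaperones -0.08 over 21, S phase genes 0.07 over 43, immediate-early genes 0.03 over 36 and TGF beta, YAP and matrix genes 0.00 over 40. At an unadjusted p below 0.05 they held 1 higher and 1 lower, none in either direction, 6 higher and 2 lower, 2 higher and 1 lower, and 2 higher and 1 lower. The counts over all 18417 genes were 1593 higher and 892 lower. Cytosolic aminoacyl-tRNA synthetases, the enzymes that charge tRNA, had a median of 0.04 over 17, with QARS1 the only one at an unadjusted p below 0.05. HOX genes had a median of -0.00 over 27, and the hindbrain gene HOXA2 differed by -0.87 (adjusted p = 0.114) and HOXB2 by -0.39. Protocadherins had a median of -0.09 over 42. Olfactory receptors, mostly silent in this line, had a median of -0.07 over 341. OR2J3 was called higher (0.76) and OR51E2 lower (-0.52), where 0.999% and 0.538% of all genes were. Both calls were lost in most fits without 1 array (adjusted p up to 0.222, without DDX17 hairpin 2, and 0.184, without CLP1 hairpin 3). Small nuclear, vault, Y and 7SK RNAs had a median of -0.21 over 31, and -0.04 at the highest over the alternatives.

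Neighbouring protein-coding genes were both called in 14 pairs, 11 of them in the same direction and 5 of these pairs of lower ZNF genes. The share over all neighbouring pairs was not counted, so these numbers are a description only. In the pair on chromosome 7, both named after their values were seen, INHBA, the activin A subunit, was lower (-1.23) and SUGCT, a glutarate metabolism enzyme, higher (1.01) in CLP1 than in DDX17 knockdown. In the pair on chromosome 13, also named after their values were seen, TMTC4 was higher (0.98) and the sodium leak channel NALCN lower (-0.85). SUGCT lost its call without DDX17 hairpin 2 (adjusted p = 0.0564) and TMTC4 in 3 of the 6 fits without 1 array (up to 0.0865, without CLP1 hairpin 3), while INHBA and NALCN were called in all 6.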
